A study of Mus musculus with 4 samples.

Results

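The hepatic acute-phase genes were examined in the liver of male ob/ob mice, whose obesity follows from overeating in the absence of leptin. The set was fixed by gene symbol and held 10 of the 24346 symbols listed for each library: Saa1, Saa2, Saa3, Saa4, Orm1, Orm2, Orm3, Hp, Lcn2 and Crp. All 10 were found and were above 0 FPKM in all 4 libraries, where FPKM is a level scaled for both transcript length and sequencing depth. The groups were CD (a regular chow diet), CD+7KC (the same diet with 0.01% 7-ketocholesterol, an oxidized form of cholesterol abbreviated 7KC), WD (a western type diet rich in cocoa butter and sucrose) and WD+7KC (that diet with 0.01% 7KC). Every diet held 1% cholesterol, including the CD that served as control, and the mice were 6 weeks old when feeding began and were fed for 4 weeks. Each group had 1 library, and the number of mice behind a library is not given in the sources used here. As a model, ob/ob mice have no leptin signal, which itself takes part in inflammatory responses. No difference below has a replicate check, so no p-value is given.

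Acute-phase proteins are plasma proteins that hepatocytes release in changed amounts when tissue is injured or infected. The cytokines IL-6, acting through STAT3, and IL-1 and TNF, acting through NF-kB, drive their transcription in hepatocytes together with C/EBP factors and glucocorticoids. Serum amyloid A (the Saa genes) travels on high-density lipoprotein, orosomucoid (the Orm genes) binds drugs and small lipophilic molecules, haptoglobin (Hp) captures free haemoglobin, lipocalin 2 (Lcn2) binds the iron carriers of bacteria, and C-reactive protein (Crp) is a pentraxin that in mice responds weakly compared with humans. Fatty liver is commonly accompanied by altered levels of several of these proteins.

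The number of mapped fragments, which was estimated from how low FPKM values are spaced, ranged from 9450000 in WD to 12125000 in WD+7KC, and between 68.7% and 69.3% of the low values lay within 0.1 of a whole read. The FPKM values of a library summed to between 602059 in WD+7KC and 715605 in CD. Because of that difference in sums, rescaling the libraries to equal sums (TPM) raised the log2 changes of WD+7KC against WD by about 0.22 for genes well above the added 0.1, and the median over all 15753 genes moved from 0.002 to 0.21. Between WD+7KC and CD+7KC the corresponding median over 15898 genes moved from 0.003 to 0.20. Directions of members and list medians that depended on this choice are named below. Log2 changes are the log2 of the ratio of FPKM + 0.1, and the exact (Clopper-Pearson) 95% intervals rest on estimated reads and cover counting error only, not the variation between mice or the copying of molecules in the library. The liver label was matched by hepatocyte transcripts: Alb, the albumin gene, was at 30014 to 35981 FPKM.

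The members of both families lie side by side in the genome (GRCm38). The 4 Saa genes occupy 42.3 kb of chromosome 7 (46711998 to 46754313) in the order Saa3, Saa4, Saa1 and Saa2, with Saa2 on the plus strand and the others on the minus strand, and each main mRNA has 4 exons. The 3 Orm genes occupy 21.3 kb of chromosome 4 (63344560 to 63365878) in the order Orm1, Orm3 and Orm2, all on the plus strand, with 6 exons each. Hp lies on chromosome 8 (109575128 to 109579172), Lcn2 on chromosome 2 (32384633 to 32388252) and Crp on chromosome 1 (172698055 to 172833031 in GENCODE, which includes a long non-coding transcript). The mRNAs of Saa1 and Saa2 are 93.9% identical over their alignment, and those of Orm1 and Orm2 91.0%, of Orm2 and Orm3 88.3% and of Orm1 and Orm3 86.4%. Of the 535 windows of 75 bases (the read length) in the Saa1 mRNA, 25 (4.67%) occur without a mismatch in Saa2. In Orm1, 97 of 701 windows (13.8%) occur in Orm2, while Orm3 shares 1 of its 699 windows with Orm2. How the authors' counting divided such reads is not given in the sources used here, so the levels of Saa1 and Saa2, and of Orm1 and Orm2, are less certain than those of the other members. RefSeq also lists Saa1 and Saa2 as synonyms of each other, so that the pair is given as a sum as well.

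RefSeq promoter sequences (GRCm38.p6, 250 bases before to 50 after the transcript start) were matched for 8 of the 10 members. They are shown for the Saa cluster and for Orm2 and Orm3, because neighbouring genes of each cluster took different courses across the diets, and for Lcn2, which differed most upward between the diets. Capitals mark matches to TTGCNNAA, the core of a C/EBP site, on either strand.
Promoters of the Saa cluster (Saa1 chr7:46742931-46743230, Saa2 chr7:46751583-46751882, Saa3 chr7:46715627-46715926 and Saa4 chr7:46732554-46732853), each 5′ to 3′ on the strand of its gene:
Saa1: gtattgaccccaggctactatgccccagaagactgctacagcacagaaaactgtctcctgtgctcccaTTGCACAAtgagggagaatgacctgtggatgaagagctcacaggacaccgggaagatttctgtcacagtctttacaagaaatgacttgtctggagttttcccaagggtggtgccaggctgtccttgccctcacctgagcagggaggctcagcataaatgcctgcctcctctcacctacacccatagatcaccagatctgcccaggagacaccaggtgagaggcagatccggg
Saa2: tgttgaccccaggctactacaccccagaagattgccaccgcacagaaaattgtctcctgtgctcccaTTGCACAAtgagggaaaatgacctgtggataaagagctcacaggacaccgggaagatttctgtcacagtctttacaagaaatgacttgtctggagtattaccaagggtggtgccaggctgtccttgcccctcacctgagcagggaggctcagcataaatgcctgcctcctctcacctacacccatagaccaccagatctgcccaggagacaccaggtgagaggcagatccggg
Saa3: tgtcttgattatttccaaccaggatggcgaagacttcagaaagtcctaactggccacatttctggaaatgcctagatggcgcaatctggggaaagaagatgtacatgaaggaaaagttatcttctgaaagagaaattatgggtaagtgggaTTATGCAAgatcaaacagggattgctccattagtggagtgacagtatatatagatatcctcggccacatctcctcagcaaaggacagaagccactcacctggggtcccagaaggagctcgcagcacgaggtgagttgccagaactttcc
Saa4: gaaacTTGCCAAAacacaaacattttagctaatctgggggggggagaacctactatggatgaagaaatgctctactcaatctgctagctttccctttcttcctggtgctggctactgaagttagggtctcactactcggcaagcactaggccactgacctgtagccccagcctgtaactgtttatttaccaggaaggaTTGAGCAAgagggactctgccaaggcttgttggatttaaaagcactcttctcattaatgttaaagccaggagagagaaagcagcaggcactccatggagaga
Promoters of Orm2 (chr4:63362199-63362498, plus strand) and Orm3 (chr4:63355908-63356207, plus strand):
Orm2: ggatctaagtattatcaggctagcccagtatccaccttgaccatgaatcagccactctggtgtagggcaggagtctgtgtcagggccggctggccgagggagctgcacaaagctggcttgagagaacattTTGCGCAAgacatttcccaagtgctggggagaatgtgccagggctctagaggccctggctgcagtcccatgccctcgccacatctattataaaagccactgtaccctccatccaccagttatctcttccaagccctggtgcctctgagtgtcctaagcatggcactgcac
Orm3: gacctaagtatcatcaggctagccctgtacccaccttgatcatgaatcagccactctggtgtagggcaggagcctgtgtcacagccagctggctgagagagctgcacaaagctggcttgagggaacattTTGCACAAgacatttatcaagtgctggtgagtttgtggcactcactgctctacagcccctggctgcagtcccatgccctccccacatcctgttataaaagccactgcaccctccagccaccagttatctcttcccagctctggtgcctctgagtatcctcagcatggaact
Promoter of Lcn2 (chr2:32387690-32387989, minus strand):
Lcn2: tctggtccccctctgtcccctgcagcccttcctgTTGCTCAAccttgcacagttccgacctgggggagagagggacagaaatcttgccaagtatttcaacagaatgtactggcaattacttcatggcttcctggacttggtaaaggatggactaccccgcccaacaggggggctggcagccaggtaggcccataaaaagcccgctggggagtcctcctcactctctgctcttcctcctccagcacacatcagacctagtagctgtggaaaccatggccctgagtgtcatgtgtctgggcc

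The TTGCNNAA match was present in 7 of the 8 promoters and absent from that of Crp, while 10.8% of all 32851 promoters in the table hold it. In Saa1 it read TTGCACAA and began 182 bases before the start, in Saa2 the same letters began 183 bases before, and in Orm3 they began 121 bases before. Orm2 had TTGCGCAA at 120 bases before its start, Saa3 TTATGCAA at 99 bases, Lcn2 TTGCTCAA at 216 bases, and Saa4 had a pair of matches at 245 and 52 bases. The Saa1 and Saa2 promoters are 95.3% identical and those of Orm2 and Orm3 86.6% identical, so these matches are not independent of each other. TTCNNNGAA (the core of a STAT3 site) and a form of the NF-kB site were found in 0 of the 8 windows, against 8.30% and 1.63% of all promoters. The pair of C/EBP matches in Saa4 did not overlap, and no other overlap was possible. A match is a description of letters, and the missing ones say only that those letters do not occur in these 300 bases.

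The members spanned a wide range of levels, as the plot of levels by library shows. Hp was the most abundant, ranking between 17 and 27 among all symbols by FPKM, and was followed by Orm1, at ranks 55 to 72. In CD the order was Hp (3060 FPKM), Orm1 (1389), Saa1 (356), Crp (285), Saa2 (192), Saa4 (145), Orm2 (134), Orm3 (74.9), Lcn2 (52.3) and Saa3 (12.9). In WD+7KC, Lcn2 (241 FPKM) stood above Orm2 (206), Crp (188), Saa2 (150), Saa4 (69.6), Saa3 (25.6) and Orm3 (21.0), and below Saa1 (305). Together the 10 genes made up 0.797% of the summed FPKM without and 0.795% with 7KC on the chow diet, and 0.991% and 1.15% on the western diet. Most of that sum was Hp.

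**Figure D1:**
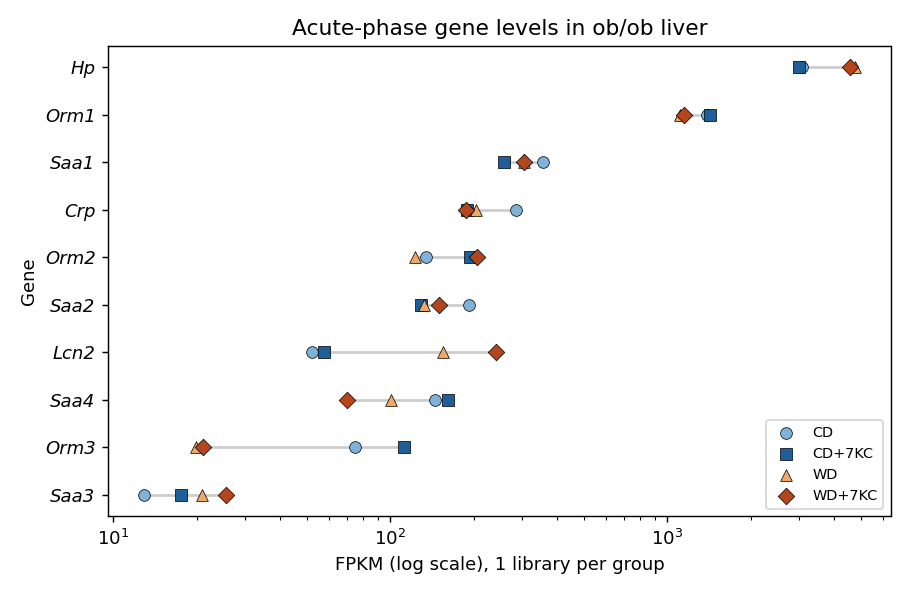
FPKM (horizontal axis, log scale) of the 10 acute-phase genes (rows) in the 4 single libraries, with a grey line from the lowest to the highest value. Orm3 spans 20.0 to 112.5 FPKM and Lcn2 52.3 to 241 FPKM, while Orm1 stays between 1113 and 1431 FPKM.

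Saa1 and Saa2 are the inducible acute-phase forms of serum amyloid A. Saa1 was at 356 FPKM without and 257 FPKM with 7KC on the chow diet, and at 304 and 305 FPKM on the western diet. Saa2 was at 192 FPKM without and 129 FPKM with 7KC on the chow diet, and at 133 and 150 FPKM on the western diet. Both were highest in CD and lowest in CD+7KC on the deposited values, while after rescaling Saa1 was highest in WD+7KC. Their levels lay within a range of 1.38-fold for Saa1 and 1.48-fold for Saa2. With 7KC on the chow diet the log2 change was -0.47 for Saa1 (95% counting interval -0.58 to -0.36) and -0.57 for Saa2 (-0.72 to -0.42). On the western diet it was 0.006 for Saa1 (-0.11 to 0.12) and 0.18 for Saa2 (0.015 to 0.35), or 0.22 and 0.40 after rescaling to equal sums. Summed, the pair was at 548 FPKM without and 387 FPKM with 7KC on the chow diet, and at 436 and 455 FPKM on the western diet, so the lower value in CD+7KC did not rest on how reads were divided between them. The ratio of Saa2 to Saa1 within a library lay between 43.7% in WD and 54.0% in CD.

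Saa3, which hepatocytes as well as macrophages and fat cells can make, was at 12.9 FPKM without and 17.6 FPKM with 7KC on the chow diet, and at 20.9 and 25.6 FPKM on the western diet. It was the least abundant Saa gene, resting on an estimated 50.3 to 110 reads, and its order of levels differed from that of Saa1. The log2 change was 0.45 (-0.084 to 1.02) for CD+7KC relative to CD and 0.29 (-0.15 to 0.75) for WD+7KC relative to WD, and both intervals held 0. After rescaling the latter was 0.51, with an interval above 0 (0.064 to 0.96). It was 0.69 (0.16 to 1.26) for WD relative to CD and 0.54 (0.085 to 0.99) for WD+7KC relative to CD+7KC. Relative to Saa1 in the same library, Saa3 was at 3.63% in CD and between 6.85% and 8.40% in the other libraries.

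Saa4 encodes the form of serum amyloid A that the liver makes constitutively, with little response to inflammation. It was at 145 FPKM without and 162 FPKM with 7KC on the chow diet, and at 101 and 69.6 FPKM on the western diet. Both western-diet libraries were below both chow libraries, and WD+7KC was the lowest of all. The log2 change with 7KC was 0.16 (0.091 to 0.23) on the chow diet and -0.53 (-0.63 to -0.43) on the western diet, or -0.31 after rescaling. For WD+7KC relative to CD+7KC it was -1.22 (-1.31 to -1.13), which made Saa4 1 of the 2 members below -1 there. With rescaling this value was -1.01, just past the threshold of -1.

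Orm1 codes for the main orosomucoid of the mouse liver and varied least of all members. It was at 1389 FPKM without and 1431 FPKM with 7KC on the chow diet, and at 1113 and 1153 FPKM on the western diet, a range of 1.29-fold. With 7KC the log2 change was 0.04 on the chow diet and 0.05 on the western diet. The values in the western-diet libraries were lower, with -0.32 (-0.37 to -0.27) for WD relative to CD and -0.31 for WD+7KC relative to CD+7KC, which was -0.10 after rescaling.

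Orm2 was at 134 FPKM without and 193 FPKM with 7KC on the chow diet, and at 122 and 206 FPKM on the western diet. It was higher with 7KC under both diets, with a log2 change of 0.53 (0.40 to 0.65) on the chow diet and 0.75 (0.62 to 0.88) on the western diet. The value on the western diet was the largest of a member in WD+7KC relative to WD, and it was 0.97 after rescaling. Of the 701 windows of Orm2, 98 (14.0%) occur in the more abundant Orm1 or in Orm3. The counting intervals do not cover how such reads were divided. Summed, the 3 Orm genes, mostly Orm1, had a log2 change with 7KC of 0.12 on the chow diet and 0.14 on the western diet. Between the diets (western relative to chow, here and below) Orm2 had -0.13 (-0.28 to 0.016) without 7KC and 0.09 (-0.019 to 0.20) with it, and the latter was 0.30 (0.19 to 0.41) after rescaling, where its interval no longer held 0.

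Orm3 showed the widest range of the members. It was at 74.9 FPKM without and 113 FPKM with 7KC on the chow diet, and at 20.0 and 21.0 FPKM on the western diet. The chow and western libraries did not overlap, and the western-diet values rested on an estimated 108 and 146 reads. The log2 change was -1.90 (-2.22 to -1.60) for WD relative to CD, 3.75-fold lower, and -2.41 (-2.69 to -2.16) for WD+7KC relative to CD+7KC, 5.35-fold lower. With 7KC it was 0.59 (0.42 to 0.76) on the chow diet and 0.08 (-0.29 to 0.45) on the western diet. Ratios within a library do not depend on the scaling. Orm3 stood at 5.39% of Orm1 in CD and 7.86% in CD+7KC, against 1.79% in WD and 1.82% in WD+7KC. Orm2 stood at 13.5% of Orm1 in CD+7KC and 17.9% in WD+7KC, and was lower in CD (9.67%) and in WD (11.0%). Thus the share of Orm3 was lower in both western-diet libraries and that of Orm2 was higher in both 7KC libraries. Both genes have a C/EBP match at nearly the same distance from the start in the promoters printed above, and its part in these shares was not tested.

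**Figure D2:**
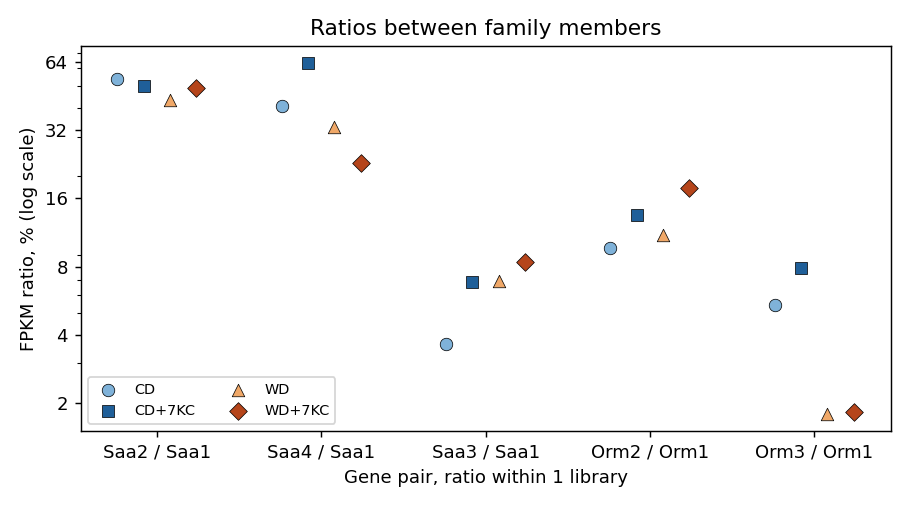
Ratio of FPKM values between members of a family within the same library, in percent (vertical axis, log scale), for the 4 libraries. Orm3 relative to Orm1 is 5.39% and 7.86% in the chow libraries and 1.79% and 1.82% in the western-diet libraries, and Orm2 relative to Orm1 is highest in WD+7KC (17.9%).

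Hp was at 3060 FPKM without and 2985 FPKM with 7KC on the chow diet, and at 4757 and 4580 FPKM on the western diet. Both western-diet libraries stood above both chow libraries, with a log2 change of 0.64 (0.62 to 0.66) without 7KC and 0.62 (0.60 to 0.64) with it. With 7KC it was -0.04 on the chow diet and -0.05 on the western diet, and these were 0.0044 and 0.16 after rescaling, so their direction depended on the scaling. Hpx, which encodes the haem-binding protein hemopexin and belongs to the other positive acute-phase genes, had 0.74 for WD relative to CD and 0.58 for WD+7KC relative to CD+7KC. Of the 17 genes of that list, however, 7 were lower in WD than in CD (median 0.07). In WD+7KC relative to CD+7KC 6 were lower (median 0.31).

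Lcn2 was at 52.3 FPKM without and 57.8 FPKM with 7KC on the chow diet, and at 155 and 241 FPKM on the western diet. The western-diet libraries were both far above the chow libraries. The log2 change was 1.56 (1.40 to 1.73) for WD relative to CD, 2.96-fold higher, and 2.06 (1.91 to 2.21) for WD+7KC relative to CD+7KC, 4.17-fold higher. With 7KC it was 0.64 (0.54 to 0.75) on the western diet, or 0.86 after rescaling, and 0.15 (-0.048 to 0.34) on the chow diet. Neutrophils also make Lcn2, and 10 neutrophil markers were analysed. Their summed level was 22.5 FPKM without and 19.9 FPKM with 7KC on the chow diet, and 16.6 and 22.1 FPKM on the western diet, Mpo (myeloperoxidase) was listed at 0 in all 4 libraries, and Elane (neutrophil elastase) lay between 0.116 and 0.297 FPKM. Of the 8 markers not at 0 in both WD and CD, 5 were higher and 3 lower in WD (median 0.44, or 0.18 with a pseudocount of 1). This median rested on low values and turned negative (-0.055, the value of S100a9) for genes of at least 1 FPKM. S100a8, the most abundant of the markers, was at 11.8 FPKM in CD and 10.3 in CD+7KC, and at 4.58 in WD and 11.1 in WD+7KC. S100a9 was at 8.40, 6.62, 8.08 and 7.59 FPKM in the same order. The part of neutrophils in the Lcn2 values was not tested.

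Crp was at 285 FPKM without and 190 FPKM with 7KC on the chow diet, and at 205 and 188 FPKM on the western diet. The CD library stood above the other 3. The log2 change was -0.59 (-0.65 to -0.52) for CD+7KC relative to CD and -0.48 (-0.55 to -0.41) for WD relative to CD. For WD+7KC relative to WD it was -0.12 (-0.19 to -0.047), or 0.10 after rescaling, and for WD+7KC relative to CD+7KC -0.01 (-0.080 to 0.061), or 0.20 after rescaling, so the last 2 directions depended on the scaling.

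The first question of the study was what 7KC adds to each diet. In WD+7KC relative to WD, 0 members were above a log2 change of 1, against 6.21% of the 15753 genes that had a value in either library, and 0 were below -1, against 2.79%. Many of those genes have low values. Among the 4671 genes whose mean was 10 FPKM or more, which include all members, 0.749% were above 1 and 0.685% below -1. Of the members, 7 were higher and 3 lower, and their median was 0.06, or 9 higher and 1 lower with a median of 0.28 after rescaling, while the median of the 4671 genes was -0.12 and 0.10. Only Saa4 was lower on both scales. In CD+7KC relative to CD, 0 members were above 1 or below -1, against 3.84% and 2.91% of 15684 genes (0.728% and 0.45% of the 4671). There 6 members were higher and 4 lower, their median of 0.09 standing against -0.01 for the 4671 genes. The median size of the change, without its sign, was 0.46 for the members against 0.12 for the 4671 genes on the chow diet, and 0.15 against 0.17 on the western diet, or 0.46 against 0.12 and 0.30 against 0.16 after rescaling. Of the 4671 genes, 28.0% were higher in WD+7KC than in WD (68.3% after rescaling) and 46.2% higher in CD+7KC than in CD (55.2%). Over all genes with a value in either library these shares were 50.2% (73.0%) and 49.3% (57.6%). Both are background for the counts of lists below, and the second applies to lists whose genes mostly average less than 10 FPKM.

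The other question was how the diets differed. In WD relative to CD, 1 member (Lcn2) was above 1, against 5.31% of 15597 genes and 1.28% of the 4671, and 1 (Orm3) was below -1, against 4.38% and 1.65%. In WD+7KC relative to CD+7KC, 1 member (Lcn2) was above 1, against 8.01% of 15898 genes and 2.27% of the 4671, and 2 (Saa4 and Orm3) were below -1, against 4.61% and 3.23%. Without 7KC, 3 members were higher in WD (Saa3, Hp and Lcn2) and 7 lower, with a median of -0.27. With 7KC, 6 were higher and 4 lower in WD+7KC, their median being 0.15, or 7 and 3 with a median of 0.36 after rescaling. Among the 4671 genes, 52.1% were higher in WD than in CD (56.2% after rescaling), with a median of 0.01. In WD+7KC relative to CD+7KC, 40.6% of them were higher (65.6% after rescaling), with a median of -0.08, or 0.13 after rescaling. The 7 members higher after rescaling were thus near that share. Over all genes with a value in either library, 50.9% and 50.2% were higher (53.6% and 68.4% after rescaling). These comparisons share libraries with those of 7KC, so they are not independent of them. Saa3, Hp and Lcn2 were higher, and Saa4, Orm1 and Orm3 lower, on the western diet both with and without 7KC, on the deposited and on the rescaled values.

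**Figure D3:**
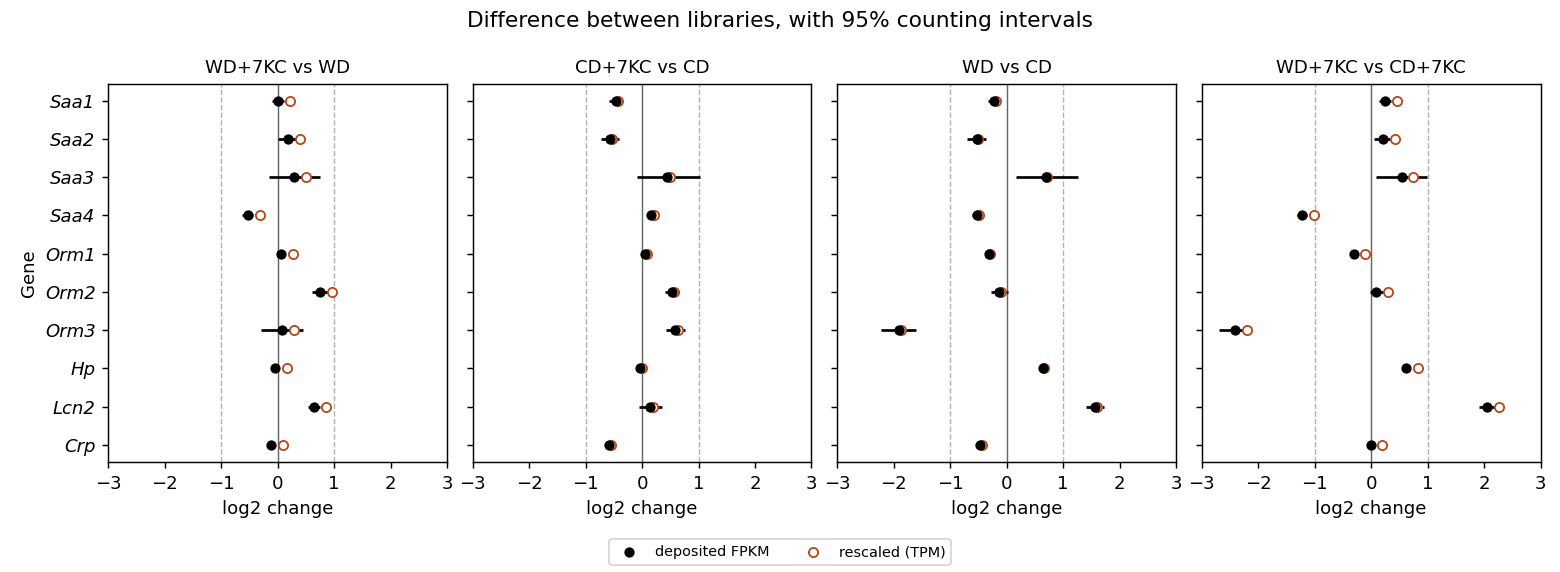
Log2 change (horizontal axis) of the 10 members (rows) in each of the 4 comparisons, 1 library against 1 library. Filled points are the deposited FPKM with their 95% counting intervals, open points the values rescaled to equal sums (TPM), and dashed lines mark -1 and 1; Lcn2 (1.56 and 2.06) and Orm3 (-1.90 and -2.41) lie past them in both comparisons of the diets.

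A wider list of 17 other genes of positive acute-phase proteins (among them fibrinogen, hepcidin and the metallothioneins) was mostly lower in CD+7KC than in CD. On the chow diet 14 were lower and 3 higher, with a median of -0.44, where 46.2% of the 4671 genes were higher. Below -1 were 2 of the 17, against 2.91% of all genes tested and 0.45% of the 4671. These were Mt2, with 228 FPKM in CD+7KC and 516 in CD (-1.17), and Mt1, with 380 and 781 FPKM (-1.04, and just inside -1 after rescaling), which encode metal-binding metallothioneins. The fibrinogen chains Fga (-0.57), Fgb (-0.65) and Fgg (-0.64) and the classical mouse acute-phase pentraxin Apcs (-0.71) were lower alongside Saa1, Saa2 and Crp. Like Crp, the fibrinogen chains were highest in CD, and in WD relative to CD they had -0.44, -0.50 and -0.66. Apcs went the other way between the diets, with 0.87 for WD relative to CD and 1.10 for WD+7KC relative to CD+7KC. Among list genes averaging 1 FPKM or more, as for the extremes of each list below, the highest value on the chow diet was 0.16 for C3, the central complement component. On the western diet with 7KC, 5 of the 17 were higher and 12 lower, and the median of -0.13 became 0.09 with 12 higher and 5 lower after rescaling. Il1rn, the antagonist of the IL-1 receptor, had the highest value there (0.92, from 4.16 to 7.99 FPKM) and Hamp, the hepcidin gene, the lowest (-0.68). In WD relative to CD, 10 were higher and 7 lower (median 0.07), and in WD+7KC relative to CD+7KC 11 were higher and 6 lower (median 0.31). Mt2 and Mt1 were also highest in CD, and they were the 2 genes of the list below -1 in WD relative to CD. Their values there were -2.31 (104 FPKM in WD) and -1.82 (221 FPKM in WD). Of all genes tested 4.38% were below -1 there, and of the 4671 1.65%. In WD+7KC relative to CD+7KC, 2 of the 17 were above 1, Apcs and, just past the threshold, Il1rn.

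Genes of plasma proteins that decline in an acute-phase response had a median of -0.42 with 7KC on the western diet, where 0 of 8 were higher and 8 lower, or -0.20 with 2 higher and 6 lower after rescaling. Of the 4671 genes, 28.0% were higher there on the deposited and 68.3% on the rescaled values. Fetub (fetuin-B) had the lowest value (-0.64) and Trf (transferrin) the highest (-0.03, or 0.19 after rescaling). In CD+7KC relative to CD, 2 were higher and 6 lower (median -0.22), from -0.71 for Apoa1, the main apolipoprotein of high-density lipoprotein, to 0.48 for Serpina6, which encodes the corticosteroid carrier of plasma. In WD relative to CD the median of this list was 0.08 (5 higher, 3 lower), and in WD+7KC relative to CD+7KC it was -0.05 (3 higher, 5 lower).

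The signalling genes upstream of the members had list medians of opposite sign with 7KC on the chow and the western diet, a difference that was not tested. Of 14 genes of IL-6 type cytokines, their receptors and STAT3 signalling, Il6 itself was listed at 0 in all 4 libraries. With 7KC on the western diet, 12 of the 13 with a value were higher and 1 lower (median 0.42, or 0.23 with a pseudocount of 1 and 0.64 after rescaling). Socs3, the feedback inhibitor induced by STAT3, had the highest value among genes of at least 1 FPKM (0.63, from 1.76 to 2.77 FPKM), and Lifr, a receptor of leukemia inhibitory factor, the lowest (-0.11, or 0.10 after rescaling). In CD+7KC relative to CD, 2 of 12 were higher and 10 lower (median -0.18). Stat3, at 25.6 FPKM in CD and 15.1 in CD+7KC, had the lowest value and the kinase gene Tyk2 the highest (0.06). In WD relative to CD, 0 of 12 were higher and the median was -0.38, while in WD+7KC relative to CD+7KC 8 of 13 were higher and the median was 0.30.

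Of 16 genes of IL-1, TNF and NF-kB signalling, 12 were higher and 4 lower in WD+7KC relative to WD (median 0.13), and 4 were higher and 12 lower in CD+7KC relative to CD (median -0.16). The cytokine gene Il1a had the highest value under both diets, with 1.08 on the western diet (from 1.55 to 3.39 FPKM) and 0.76 on the chow diet. The lowest values were -0.54 for Il1rap, a co-receptor of IL-1, on the western diet and -0.53 for the NF-kB subunit gene Nfkb2 on the chow diet. Between the diets the median was -0.21 without 7KC and 0.20 with it.

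Of 7 transcription factor genes of hepatocyte acute-phase control, 6 were lower and 1 higher with 7KC under each diet, with medians of -0.20 on the western diet (0.015, with 4 higher and 3 lower, after rescaling) and -0.19 on the chow diet. Foxa2, a hepatocyte factor, was the 1 higher gene, with 0.37 and 0.04. The C/EBP genes had the lowest values, with -0.87 for Cebpd on the western diet (from 5.70 to 3.07 FPKM) and -0.54 for Cebpb on the chow diet (from 110 to 75.5 FPKM). Without 7KC the median of the list between the diets was -0.01, and with 7KC -0.17, or 0.022 and 0.036 after rescaling.

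**Figure D4:**
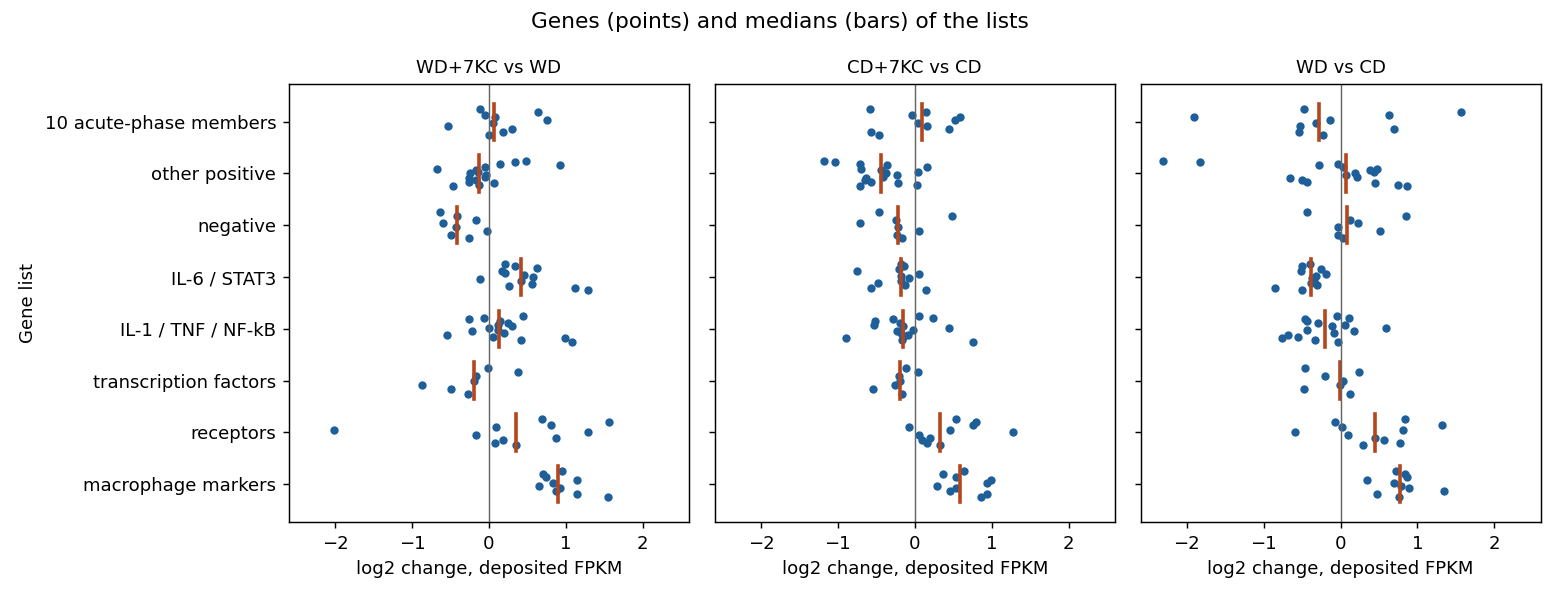
Log2 change with the deposited FPKM values (horizontal axis) of the single genes (points) of 8 gene lists (rows) and the median of each list (bar), for 3 comparisons of 1 library with 1 library. The IL-6 and STAT3 list has a median of 0.42 in WD+7KC relative to WD and -0.18 in CD+7KC relative to CD, and the macrophage markers have medians of 0.90 and 0.59.

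Receptors and binding partners of the members were described by 11 genes, of which 9 were higher and 2 lower in WD+7KC relative to WD (median 0.35) and 10 higher and 1 lower in CD+7KC relative to CD (median 0.33). These medians depended on low values, with 0.23 and 0.11 for a pseudocount of 1 and 0.69 and 0.54 for genes of at least 1 FPKM. Fcgr2b, an inhibitory Fc receptor that can bind C-reactive protein, had the highest value on the western diet (1.56, from 13.5 to 40.0 FPKM), and Cd163, the macrophage receptor for haptoglobin bound to haemoglobin, on the chow diet (1.27, from 1.14 to 2.91 FPKM). Over the libraries, Fcgr2b took the same order as the summed endothelial markers below. The part of macrophages and endothelial cells in the receptor values was not tested. Scarb1, a receptor of high-density lipoprotein that also takes up serum amyloid A, had the lowest values (-0.17, or 0.04 after rescaling, and 0.06). Between the diets the median was 0.44 without 7KC and 0.65 with it.

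Markers of other cells differed between the same libraries, and in bulk tissue fewer cells of a type and less RNA per cell cannot be told apart. The 10 macrophage and Kupffer cell markers were higher in 10 of 10 cases in each of the 4 comparisons, with medians of 0.90 in WD+7KC relative to WD, 0.59 in CD+7KC relative to CD, 0.78 in WD relative to CD and 1.11 in WD+7KC relative to CD+7KC. Their summed level was 169 FPKM without and 260 FPKM with 7KC on the chow diet, and 294 and 538 FPKM on the western diet, the same order as Saa3 and Lcn2, and their part in those values was not tested. The extremes were Marco and Adgre1 (F4/80) on the western diet, with 0.65 and 1.55, and Marco and Timd4 on the chow diet, with 0.29 and 0.99. The summed level of 8 hepatocyte markers was 55076 FPKM without and 46643 FPKM with 7KC on the chow diet, and 56002 and 43731 FPKM on the western diet, with medians of -0.23 on the western diet (-0.01, with 4 higher and 4 lower, after rescaling) and -0.16 on the chow diet with 7KC, and their part in the lower values of CD+7KC was not tested. They ranged from Cyp2e1 (-0.86) to Pck1 (-0.10, or 0.11 after rescaling) on the western diet. On the chow diet the range was from Apoa1 (-0.71) to Ass1 (0.46). Alb, Apoa1 and Ttr (transthyretin) are also on the negative acute-phase list, so the hepatocyte markers and that list are not independent. These shared genes made up most of the summed hepatocyte level in every library, and most of its lower value in CD+7KC relative to CD. Between the diets the hepatocyte median was -0.05 without 7KC and -0.36 with it.

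Among the 6 adipocyte markers, Plin1 was listed at 0 in all 4 libraries, and Adipoq and Retn were listed at 0 in both western-diet libraries, with Adipoq at no more than 0.0885 FPKM in the others. The part of fat cells in the Saa3 values was not tested. Cfd, the adipsin gene, was at 220 FPKM without and 63.2 FPKM with 7KC on the chow diet, and at 1.47 and 0.115 FPKM on the western diet, and Fabp4, which macrophages and endothelial cells also express, at 83.5, 66.5, 104 and 143 FPKM. The median of the adipocyte list was -0.06 over 3 genes on the western diet (0.12 after rescaling) and -0.33 over 5 genes on the chow diet with 7KC, and -0.91 between the diets with and without 7KC. With a pseudocount of 1 the values between the diets with and without 7KC were -0.24 and -0.12, and with genes of at least 1 FPKM -3.55 and -3.71, so the size rested on few genes. The summed level of the 6 endothelial markers was 55.0 FPKM without and 80.2 FPKM with 7KC on the chow diet, and 43.5 and 123 FPKM on the western diet, with 6 of 6 higher in WD+7KC than in WD (median 1.52, from 1.07 for Pecam1 to 1.95 for Kdr) and 5 of 6 higher in CD+7KC than in CD (median 0.39, from -0.46 for Lyve1 to 0.89 for Clec4g). The 6 bile duct markers summed to 103 FPKM without and 46.9 FPKM with 7KC on the chow diet, and to 126 and 186 FPKM on the western diet, most of which was Spp1 (osteopontin), and 5 of 6 were higher in WD+7KC than in WD (median 0.34) and 6 of 6 lower in CD+7KC than in CD (median -0.44). Of the neutrophil markers not at 0 in both libraries, 4 stood higher and 5 lower in WD+7KC relative to WD (median -0.09) and 4 were higher and 4 lower in CD+7KC relative to CD (median 0.03), and between the diets the median was 0.44 without and 0.04 with 7KC. S100a8 had the highest neutrophil value on the western diet (1.26) and Retnlg on the chow diet (0.53), while S100a9 had the lowest (-0.09, or 0.13 after rescaling, and -0.34).

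The genes whose pattern over the 4 libraries came closest were sought for the 3 members with the widest range, among those 4671 genes, by the Euclidean distance between centred log2(FPKM + 0.1) values. Over 4 libraries a small distance is common for a narrow pattern: 291 genes lay within 0.5 of Saa4, 6 of Lcn2 and 2 of Orm3. The 3 nearest to Orm3 were Malat1, a nuclear non-coding RNA (distance 0.44), Cyp2b10, a cytochrome P450 gene (0.46), and Lars2, a mitochondrial leucyl-tRNA synthetase gene (0.63). The 3 nearest to Lcn2 were the cyclin gene Ccnd1 (0.35), the macrophage marker Cd68 (0.38) and Clec7a, the receptor dectin-1 (0.44). The 3 nearest to Saa4 were Otc, an enzyme of the urea cycle (0.05), BC089597 (0.08) and Ces1g, a carboxylesterase gene (0.10).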

How the data were processed

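RNA sequencing of liver gave 1 library for each of CD, CD+7KC, WD and WD+7KC. Stranded mRNA libraries were read as 75-base single ends. Reads were mapped to mm10 with TopHat2 2.0.13, Bowtie2 2.2.3 and SAMtools 0.1.19, and the authors deposited FPKM values from Cufflinks 2.2.1, as given in the submitters' processing notes. The annotation and the handling of reads that map to several genes are not given in the sources used here.

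From the FPKM values, the log2 ratio of FPKM + 0.1 was taken for each gene with a value in either library compared, and changes above 1 or below -1 were counted. With 1 library per group no test was run. Reads were estimated from FPKM, the length of the longest GENCODE vM21 transcript linked to a RefSeq mRNA minus 200 bases, and a depth fitted to the steps of low values over 14496 genes with a single such mRNA. The code was tested on simulated data. Alternatives were a pseudocount of 1, a filter of at least 1 FPKM, TPM, median-ratio scaling and the sum of near-identical members (Saa1 with Saa2, and Orm1 with Orm2 and Orm3). Named genes were the members, the genes with the highest and lowest 7KC change of each list among those with a mean of at least 1 FPKM, and the 3 nearest patterns of the 3 members with the widest range. Hpx, the fibrinogen chains, Apcs, Mt1, Elane and the adipocyte markers were named after their values had been seen. The members and lists were chosen with earlier results of these data known. The neutrophil marker Ly6g was not analysed here. Python 3.11.15, numpy 2.4.6, pandas 2.3.3, scipy 1.17.1, Biopython 1.88 and matplotlib 3.10.9 were used.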

Additional observations from a re-analysis of the deposited data

Results flagged for a closer look

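Some results took opposite directions in the 2 diets, or with and without 7KC, and these differences were not tested because each group had 1 library. The log2 change with 7KC was 0.006 on the western diet and -0.47 on the chow diet for Saa1, a difference of 0.47, where the first value has a counting interval that holds 0 on the deposited values and lies above 0 after rescaling (0.22, from 0.11 to 0.33). For Saa2 the values were 0.18 and -0.57, a difference of 0.75, and for Saa4 -0.53 and 0.16, a difference of -0.69. The same differences of 0.47 and 0.75 appear when the diets are compared, since Saa1 had 0.25 with 7KC and -0.23 without it and Saa2 0.22 and -0.53. Orm2 had 0.09 between the diets with 7KC and -0.13 without it, a difference of 0.22. Both counting intervals held 0 on the deposited values, and the first lay above 0 after rescaling (0.30, from 0.19 to 0.41).

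Of the list medians, that of IL-6 type cytokines, receptors and STAT3 signalling was 0.42 with 7KC on the western diet and -0.18 on the chow diet (difference 0.60), and 0.30 and -0.38 between the diets with and without 7KC (difference 0.69). For IL-1, TNF and NF-kB signalling these were 0.13 and -0.16 (difference 0.29), and 0.20 and -0.21 (difference 0.41). For the bile duct markers they were 0.34 and -0.44 (difference 0.78), and 0.02 and -0.48 (difference 0.50). The neutrophil markers had -0.09 with 7KC on the western diet and 0.03 on the chow diet (difference -0.12). Between the diets, with and without 7KC, the negative acute-phase genes had -0.05 and 0.08 (difference -0.13) and the endothelial markers 0.71 and -0.35 (difference 1.06).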

How the results depend on the processing

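The counts of members above 1 and below -1 were the same in all 4 comparisons with a pseudocount of 1, a filter of at least 1 FPKM, TPM and median-ratio scaling. Summing the near-identical members took Orm3 out of the counts below -1, leaving 0 in WD relative to CD and 1 in WD+7KC relative to CD+7KC. The Orm sum was mostly Orm1, so it cannot show whether the Orm3 difference depends on how reads were divided. After rescaling to TPM the median of the members became 0.28 in WD+7KC relative to WD and 0.36 in WD+7KC relative to CD+7KC. TPM turned the direction of Hp in WD+7KC relative to WD (0.16) and in CD+7KC relative to CD (0.0044), and of Crp in WD+7KC relative to WD (0.10) and to CD+7KC (0.20, or 0.025 with median-ratio scaling). It also turned list medians in WD+7KC relative to WD for the other positive acute-phase genes (0.089), the transcription factors (0.015), the neutrophil markers (0.13) and the adipocyte markers (0.12), and in WD+7KC relative to CD+7KC for the negative acute-phase genes (0.16) and the transcription factors (0.036). In WD relative to CD the transcription factors became 0.022, or 0.0025 with median-ratio scaling. With at least 1 FPKM the neutrophil median turned to 0.21 in WD+7KC relative to WD, -0.20 in CD+7KC relative to CD and -0.055 in WD relative to CD. With a pseudocount of 1 the neutrophil median in WD relative to CD was 0.18. Other list medians kept their direction but moved by over 1.5 times. With a pseudocount of 1 those of WD+7KC relative to WD were 0.23 for IL-6 and STAT3 signalling, 0.23 for the receptors and 0.14 for the bile duct markers, and in CD+7KC relative to CD 0.11 for the receptors and -0.21 for the bile duct markers. For WD relative to CD they were 0.20 for the receptors, -0.12 for the adipocyte and -0.24 for the bile duct markers, and in WD+7KC relative to CD+7KC 0.19 for IL-6 and STAT3 signalling, 0.36 for the receptors and -0.24 for the adipocyte markers. With at least 1 FPKM the adipocyte medians were -1.21 (WD+7KC relative to WD), -1.80 (CD+7KC relative to CD), -3.71 (WD relative to CD) and -3.55 (WD+7KC relative to CD+7KC), the receptor medians with 7KC 0.69 and 0.54, and the bile duct median in WD+7KC relative to CD+7KC was 1.27. With TPM the medians of WD+7KC relative to WD were -0.20 for the negative acute-phase genes, 0.64 for IL-6 and STAT3 signalling, 0.35 for IL-1, TNF and NF-kB signalling, 0.57 for the receptors, -0.014 for the hepatocyte and 0.56 for the bile duct markers, and those of WD+7KC relative to CD+7KC 0.52 for the other positive genes, 0.51 and 0.41 for the IL-6 and IL-1 lists, -0.16 for the hepatocyte and 0.21 for the bile duct markers.

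Over all genes the counts depended on the low values. In WD+7KC relative to WD they were 978 above 1 and 440 below -1, 140 and 49 with a pseudocount of 1, 414 and 107 with at least 1 FPKM, and 1629 and 453 with TPM. In CD+7KC relative to CD they were 603 and 456, then 65 and 48 with a pseudocount of 1 and 170 and 117 with at least 1 FPKM. In WD relative to CD they were 828 and 683, then 150 and 137, and 330 and 272. In WD+7KC relative to CD+7KC they were 1274 and 733, then 316 and 225, 692 and 351, and 2007 and 719 with TPM, which moved the share above 1 among those past either threshold from 63.5% to 73.6%. No paired analysis was possible because each group had 1 library. Depth limits Saa3, with 50.3 estimated reads in CD, and Orm3, with 108 in WD.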
